A study of Mus musculus with 12 samples.

Results

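The replication-dependent histone genes are the 68 gene symbols, of 23235 in the deposited table, that begin with Hist1h, Hist2h, Hist3h or Hist4h. They were chosen by symbol alone, without a rule on their values, though with earlier results of these data known. They encode the linker histone H1 (6 genes) and the core histones H2A (18 genes), H2B (19 genes), H3 (12 genes) and H4 (13 genes). The Hist1 cluster on chromosome 13 holds 54 of them, the Hist2 cluster on chromosome 3 holds 10, the Hist3 cluster on chromosome 11 holds 3, and Hist4h4 stands alone on chromosome 6 (GRCm38).

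Poly(A) RNA was measured in mouse oocytes of 4 groups: wild-type (WT) and Mtr4-null, each at day 14, where the labels call the oocytes growing germinal vesicle (GV) oocytes, and at day 21, where they are called GV oocytes. Mtr4 (listed under its older symbol Skiv2l2) encodes an RNA helicase of the cell nucleus that unwinds RNA for degradation by the RNA exosome. The labels list 12 samples, 3 per group, each a lysate of 10 oocytes copied from oligo-dT primers by the Smart-seq2 protocol, while the design text speaks of duplicates. The mouse strain, the part of Mtr4 that was deleted, what drove the deletion and whether different animals gave the samples of a group are not given in the sources used here. The table holds 1 value per gene and group, the authors' mean FPKM (fragment counts normalised to gene length and sequencing depth), so no value below has a replicate error, no test was possible, and the depth of each sample is unknown. Higher and lower below mean that 2 group means lay at least 2-fold apart on the log2(FPKM + 1) scale, a log2 difference of 1. This mark is a rule of size, and the added 1 compresses folds where FPKM are low. Where 4 values of a gene are given together, they are in the order WT then Mtr4-null at day 14, followed by WT then Mtr4-null at day 21.

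Replication-dependent histone mRNAs are made in bulk in S phase and are the main mRNAs of animal cells that end without a poly(A) tail. Their 3′ end is formed by a cut just after a conserved stem-loop, which is bound by the stem-loop binding protein SLBP, and the cut is directed by the U7 snRNP and made by the endonuclease CPSF73. Some of these genes also give polyadenylated transcripts that end further downstream, and such transcripts are what oligo-dT priming captures well. Growing oocytes do not replicate DNA, but they store SLBP and histone mRNA for the early embryo.

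The stem-loops are shown first because they define the class, and the genes chosen are those on which the results below turn, with Hist1h2ab as a member listed at 0 FPKM in every group. Each sequence is the sense strand of the GENCODE vM21 transcript (GRCm38), 5′ to 3′, with the 16 bases of the stem-loop in capitals and 5 bases on either side.
Hist1h4i: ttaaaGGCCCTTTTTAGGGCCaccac
Hist2h4: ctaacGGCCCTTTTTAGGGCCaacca
Hist4h4: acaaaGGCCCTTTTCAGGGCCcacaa
Hist1h4c: caaaaGGCCCTTTTCAGGGCCaccca
Hist2h3c1: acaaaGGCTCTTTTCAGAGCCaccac
Hist3h2ba: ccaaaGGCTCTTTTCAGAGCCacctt
Hist1h1c: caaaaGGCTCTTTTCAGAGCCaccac
Hist1h2ab: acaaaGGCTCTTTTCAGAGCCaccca

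A stem-loop matching the histone stem-loop consensus was found in the longest annotated protein-coding transcript, or the longest transcript of a gene without one, of 45 of the 68 genes. The same search, on the sense strand, matched 554 of 21877 protein-coding genes (2.53%). The stem separates H4 from the other types. The form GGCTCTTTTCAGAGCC was carried by 10 H2A, 7 H2B, 5 H3 and 3 H1 genes, and it was present in 0.123% of protein-coding genes. The H4 genes carried a stem that begins with GGCCC or GGTCC, in the forms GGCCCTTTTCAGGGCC (7 genes), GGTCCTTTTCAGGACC (2 genes), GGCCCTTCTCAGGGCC (1 gene) and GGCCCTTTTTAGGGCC (2 genes, Hist1h4i and Hist2h4). In the remaining 23 genes the annotated transcript held no match, and 1 of these symbols, Hist3h2bb-ps, denotes a pseudogene. These 23 included Hist1h2bc, Hist1h2aa and Hist1h2ba. Some of the 23 are annotated with almost nothing past the coding sequence, such as Hist1h2aa (390 bases, 387 of them coding) and Hist1h2ba (384 and 381 bases). In such transcripts a stem-loop past the coding sequence could not be found, so the lack of a match does not show that the gene lacks one. The class was therefore taken by symbol, and the stem-loop was used only to describe it.

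Most of these genes were scarce in poly(A) RNA. Of the 68, 17 were listed at 0 FPKM in all 4 groups (25.0%, against 17.4% of all symbols). Below 1 FPKM in all 4 groups stayed 34 of the 68, against 10218 of the 23235 symbols, so low values are common in the whole table too. A value above 0 was listed for 36 members in WT and 42 in Mtr4-null oocytes at day 14, and for 34 and 40 at day 21. Of the 23235 symbols, 17387 and 17831 had one at day 14, and 17224 and 16638 at day 21. A level of 10 FPKM was reached by 3 members in WT and 9 in Mtr4-null oocytes at day 14, and by 3 and 11 at day 21. Of the 23235 symbols, 5928 and 6388 reached it at day 14, and 5925 and 5726 at day 21. The 3 members at 10 FPKM in WT oocytes were the same at both ages, namely Hist1h2bc, Hist1h2aa and Hist3h2ba. The members above 10 FPKM in Mtr4-null oocytes at day 21 were these 3 together with Hist1h1c, Hist2h3c1, Hist1h4c, Hist1h4d, Hist1h4h, Hist1h4i, Hist2h4 and Hist4h4, of which 6 encode H4.

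At day 14, 14 of the 68 members were at least 2-fold higher in Mtr4-null than in WT oocytes and 0 were lower. This is 20.6% of the members, where 4.3% of all symbols were higher and 0.813% lower. At day 21, 22 members were higher (32.4%) and 1, Hist3h2a, was lower, where 11.9% of all symbols were higher and 13.7% lower. Many members are near 0 in all groups, so the median log2 difference over the 68 was small, 0.23 at day 14 and 0.11 at day 21, against 0 for all symbols at both ages. Among the 19 members with a mean of at least 1 FPKM over both WT groups, which does not use the Mtr4-null values, 8 were higher at day 14 (42.1%, against 5.24% of symbols passing the same filter) and 11 at day 21 (57.9%, against 14.9%). Their median log2 difference was 0.83 at day 14 and 1.27 at day 21, where the medians of all symbols passing it were 0.01 and -0.41. FPKM are relative to all RNA captured in a sample, so a change in the number of histone transcripts per oocyte and a change in the amount of other RNA cannot be told apart.

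**Figure D1:**
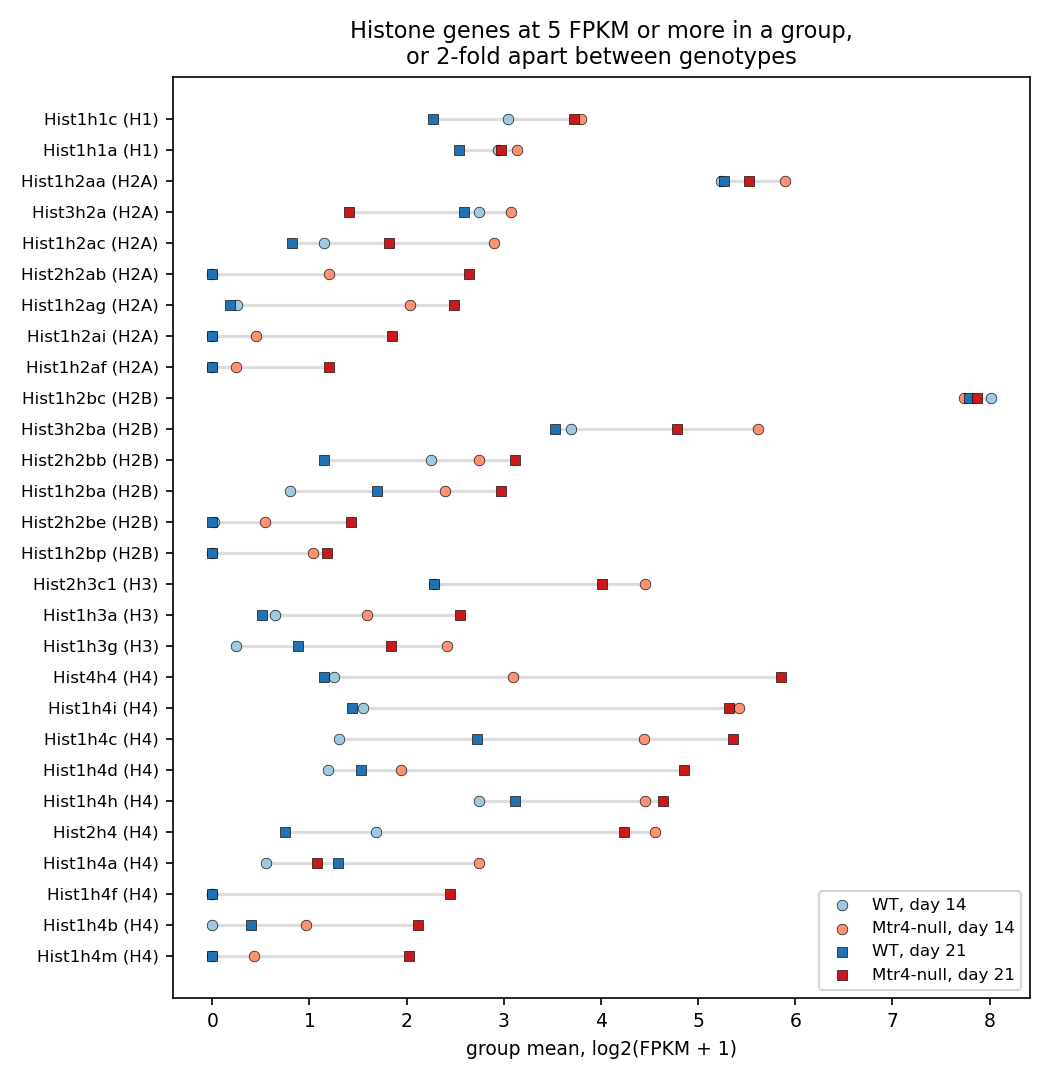
Group mean level, as log2(FPKM + 1), of each histone gene that reached 5 FPKM in any group or was 2-fold apart between genotypes at either age; circles are day 14 and squares day 21, blue WT and red Mtr4-null. In the H4 genes of the lower block the day 21 Mtr4-null symbol lies to the right of both WT symbols, except in Hist1h4a, whereas the symbols of Hist1h2bc lie close together near 8.

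H4 was the type with the most members higher in Mtr4-null oocytes. Of the 13 H4 genes, 6 were higher at day 14 (46.2%) and 9 at day 21 (69.2%), with median log2 differences of 0.97 and 2.03. The shares of all symbols were 4.3% and 11.9%. Hist1h4i stood at 1.92 FPKM in WT against 41.9 FPKM in Mtr4-null oocytes on day 14, and at 1.71 and 39.0 FPKM at day 21. Its ratio of Mtr4-null to WT was 21.8 at day 14 and 22.8 at day 21, so both Mtr4-null means lay far above both WT means. Hist2h4, whose stem-loop has the same 16 bases as that of Hist1h4i, stood at 2.21 and 22.6 FPKM at day 14 and at 0.683 and 17.9 FPKM at day 21, ratios of 10.2 and 26.2. Hist1h4c stood at 1.48 and 20.8 FPKM at day 14 and at 5.61 and 40.2 FPKM at day 21, ratios of 14.1 and 7.16. Hist1h4h, the H4 gene with the highest WT level, stood at 5.69 and 20.8 FPKM at day 14 and at 7.65 and 23.9 FPKM at day 21, ratios of 3.66 and 3.12. In these 4 genes the lower of the Mtr4-null means exceeded the higher of the WT means. The same held in Hist4h4, Hist1h4d, Hist1h4b and Hist1h4m, and outside H4 in Hist2h3c1 and Hist3h2ba among others, so it does not set the 4 apart.

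Other H4 genes differed between the ages. Hist4h4 stood at 1.38 FPKM in WT against 7.56 FPKM in Mtr4-null oocytes on day 14, and at 1.23 and 56.9 FPKM at day 21, where it was the most abundant H4 gene. Its ratio was 5.48 at day 14 and 46.4 at day 21. Hist1h4d stood at 1.28 and 2.83 FPKM at day 14, below the 2-fold mark with a log2 difference of 0.75, and at 1.88 and 27.9 FPKM at day 21, a ratio of 14.8. Hist1h4a showed the opposite order, with 0.468 and 5.71 FPKM at day 14 but 1.46 and 1.12 FPKM at day 21. Hist1h4f was listed at 0 in every group except Mtr4-null day 21, where it stood at 4.46 FPKM. Hist1h4b (0, 0.957, 0.322 and 3.35 FPKM) and Hist1h4m (0, 0.345, 0 and 3.07 FPKM) were also highest in Mtr4-null oocytes at day 21. Whether the genotype difference of any of these genes differs between the ages could not be tested with 1 mean per group. Of the remaining H4 genes, Hist1h4j and Hist1h4n were listed at 0 in all groups and Hist1h4k stayed below 0.5 FPKM.

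H3 had few expressed members. Hist2h3c1 stood at 3.87 FPKM in WT against 20.9 FPKM in Mtr4-null oocytes on day 14, and at 3.85 and 15.2 FPKM at day 21, ratios of 5.40 and 3.94. It was the only H3 gene above 5 FPKM in any group. Hist1h3g stood at 0.186 and 4.35 FPKM at day 14, a ratio of 23.3, and at 0.846 and 2.57 FPKM at day 21, a log2 difference of 0.95 that falls just short of the mark. Hist1h3a stood at 0.561 and 2.01 FPKM at day 14, also just short of it with 0.95, and at 0.430 and 4.87 FPKM at day 21, a ratio of 11.3. The count of 2 higher H3 genes of 12 at either age (16.7%) thus covers 3 different genes. Of all symbols, 4.3% were higher at day 14 and 11.9% at day 21. With 12 genes, the H3 count at day 21 cannot be told apart from that share. Hist1h3f stayed within the mark, between 1.49 and 3.43 FPKM over the 4 groups.

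Among the 19 H2B genes, 3 (15.8%) were higher in Mtr4-null oocytes at day 14 and 5 (26.3%) at day 21. Of all symbols, 4.3% and 11.9% were higher at those ages. Hist3h2ba, an H2B gene of the Hist3 cluster, stood at 11.9 FPKM in WT against 48.1 FPKM in Mtr4-null oocytes on day 14, and at 10.5 and 26.4 FPKM at day 21, ratios of 4.04 and 2.52. Hist1h2ba, which encodes the germ cell variant TH2B, stood at 0.739 and 4.26 FPKM at day 14 and at 2.25 and 6.86 FPKM at day 21, ratios of 5.76 and 3.05. Hist2h2bb stood at 3.75 and 5.69 FPKM at day 14, within the mark, and at 1.23 and 7.70 FPKM at day 21. Hist1h2bp was listed at 0 in WT oocytes at both ages but reached 1.06 and 1.27 FPKM without Mtr4, which puts it just past the mark. Hist2h2be stood at 0.0107, 0.459, 0 and 1.69 FPKM, so only its day 21 difference passed the mark. Just outside the mark at day 21 was Hist1h2bj with 1.35 and 3.49 FPKM.

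Hist1h2bc was the exception in level. It stood at 257 FPKM in WT against 212 FPKM in Mtr4-null oocytes on day 14, and at 220 and 233 FPKM at day 21, ratios of 0.823 and 1.06. It held 71.7% and 69.0% of the summed histone FPKM in WT oocytes at day 14 and day 21, and 39.6% and 38.1% in Mtr4-null oocytes. Its annotated transcript has 2 exons and 1156 bases and holds no stem-loop match, unlike those of the intronless genes Hist1h4i or Hist3h2ba. Hist1h2bk, a low H2B gene, was listed at 1.25, 1.75, 0.995 and 0 FPKM, a log2 difference of -0.997 at day 21 that just misses the mark.

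**Figure D2:**
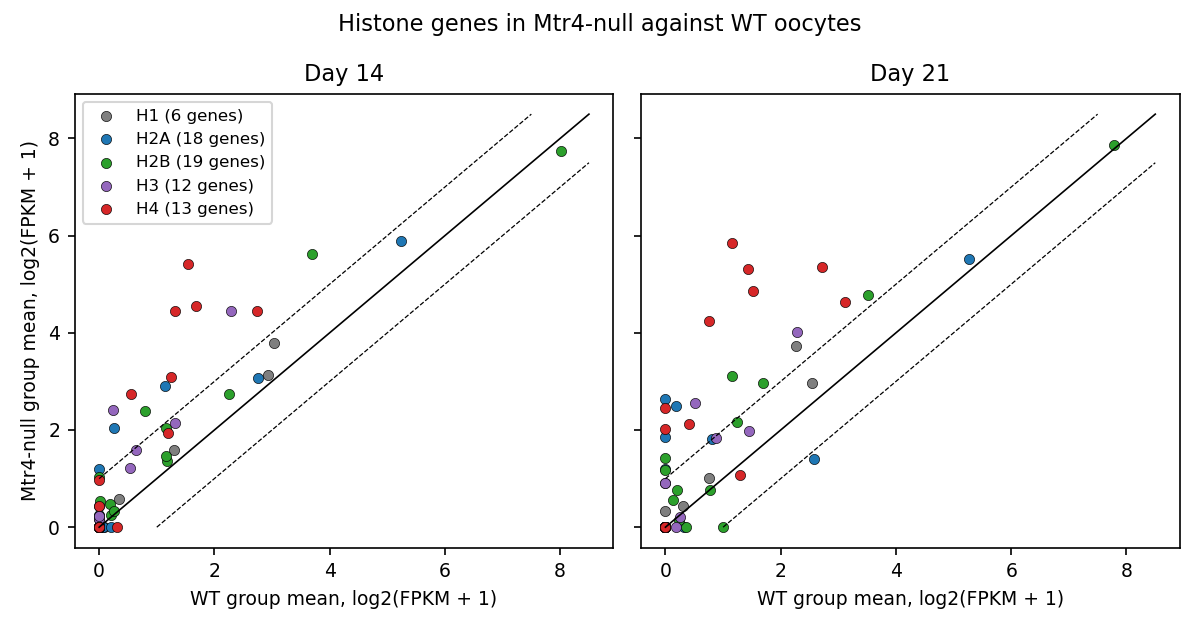
Level of each of the 68 histone genes in Mtr4-null (vertical axis) against WT oocytes (horizontal axis), as log2(FPKM + 1) of the group mean, at day 14 and day 21; the solid line marks equal levels and the dashed lines a 2-fold difference. The genes furthest above the upper dashed line are H4 genes (red) at both ages, no gene lies below the lower one at day 14, and 1 does at day 21.

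Of the 18 H2A genes, 3 (16.7%) were higher in Mtr4-null oocytes at day 14 and 5 (27.8%) at day 21. The shares of all symbols were 4.3% and 11.9%. Listed at 0 in all groups were 7 H2A genes. Hist1h2aa, which encodes the germ cell variant TH2A, was the most abundant. It stood at 36.6 FPKM in WT against 58.6 FPKM in Mtr4-null oocytes on day 14, and at 37.5 and 45.2 FPKM at day 21, ratios of 1.60 and 1.20 that stay within the mark. Hist1h2ac stood at 1.22 and 6.49 FPKM at day 14 and at 0.760 and 2.54 FPKM at day 21, a log2 difference of 1.01 that is the nearest past the mark at that age. Hist1h2ag stood at 0.192 and 3.10 FPKM at day 14 and at 0.133 and 4.59 FPKM at day 21. Some low members were listed at 0 in WT oocytes at both ages. These were Hist2h2ab (1.30 FPKM in Mtr4-null oocytes at day 14 and 5.23 FPKM at day 21), Hist1h2ai (0.362 and 2.61 FPKM) and Hist1h2af (0.181 and 1.31 FPKM).

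Hist3h2a was the only member at least 2-fold lower in Mtr4-null oocytes. It stood at 5.73 FPKM in WT against 7.41 FPKM in Mtr4-null oocytes on day 14, and at 5.00 and 1.66 FPKM at day 21, a log2 difference of -1.17. Its neighbour in the Hist3 cluster, Hist3h2ba, was higher in Mtr4-null oocytes at both ages. Hist3h2a overlaps Trim17 on the same strand in GENCODE vM21, and Trim17 was listed at 0.0526 to 0.167 FPKM over the groups.

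None of the 6 linker histone H1 genes was 2-fold apart at day 14, where 4.3% of all symbols were higher and 0.813% lower. At day 21, 1 of them (16.7%), Hist1h1c, was higher, where 11.9% of all symbols were higher and 13.7% lower. With 6 genes, these counts cannot be told apart from the shares of all symbols. Hist1h1c, a somatic linker histone gene, stood at 7.24 FPKM in WT against 12.8 FPKM in Mtr4-null oocytes on day 14, and at 3.83 and 12.2 FPKM at day 21, ratios of 1.77 and 3.18. Hist1h1a stood between 4.80 and 7.81 FPKM in all 4 groups, and Hist1h1d between 0.682 and 2.02 FPKM. For scale, H1foo, the linker histone gene of oocytes with a polyadenylated mRNA, was listed at 2569 to 3632 FPKM.

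Summed over a type, which depends less on how reads were divided among near-identical copies, H4 stood at 14.7 FPKM in WT against 123.5 FPKM in Mtr4-null oocytes on day 14, a ratio of 8.42. At day 21 the H4 sums were 20.5 and 217.8 FPKM, a ratio of 10.6. H3 summed to 6.55 and 32.3 FPKM at day 14 and to 7.17 and 27.5 FPKM at day 21, ratios of 4.93 and 3.83. Without Hist1h4i, the H4 gene with the highest mean over the 4 groups, the H4 ratios were 6.41 and 9.50, and without Hist4h4, the highest in Mtr4-null oocytes at day 21, the ratio at that age was 8.33. Without Hist2h3c1 the H3 ratios were 4.25 and 3.71, so neither difference in sum was carried by a lone gene.

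The other types depended on the member with the highest mean over the groups. The H2B sums were 278 and 279 FPKM at day 14 and 237 and 282 FPKM at day 21, ratios of 1.00 and 1.19, but without Hist1h2bc they were 20.6 and 67.1 FPKM and 17.7 and 49.4 FPKM, ratios of 3.25 and 2.79. The H2A ratios were 1.77 and 1.45, and 2.59 and 2.92 without Hist1h2aa. The H1 ratios were 1.47 and 2.16, and 1.22 and 1.48 without Hist1h1c. Over all 68 genes the sum was 358.9 FPKM in WT against 535.7 FPKM in Mtr4-null oocytes on day 14, and 318.2 and 611.5 FPKM at day 21. That is 0.0599%, 0.0899%, 0.0527% and 0.0941% of all FPKM in those groups.

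**Figure D3:**
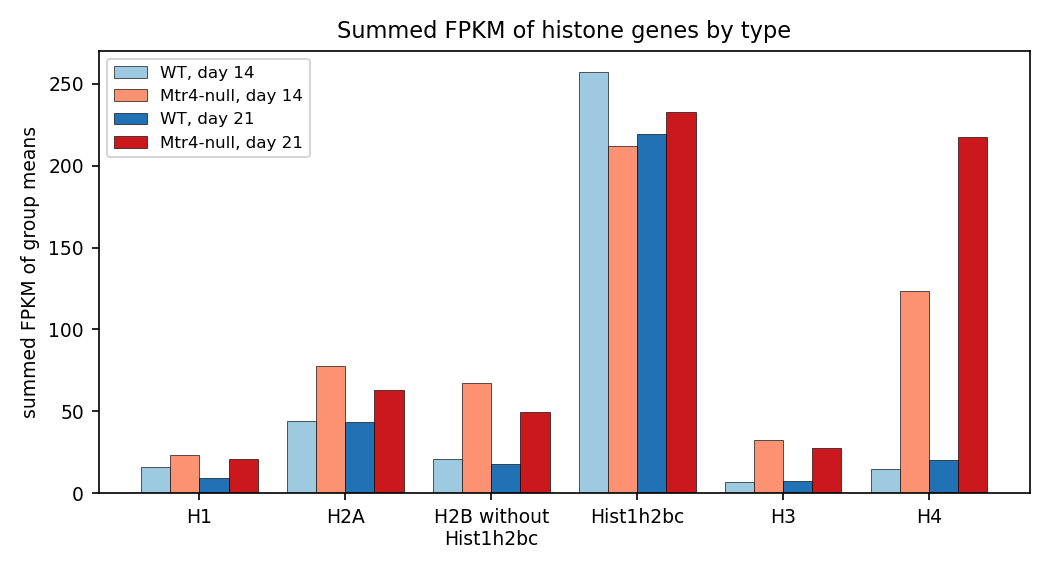
Summed FPKM of the group means for each histone type, with Hist1h2bc drawn apart from the other H2B genes; bars show, from left to right, WT day 14, Mtr4-null day 14, WT day 21 and Mtr4-null day 21. The H4 bars go from 14.7 and 20.5 FPKM in WT to 123.5 and 217.8 FPKM in Mtr4-null oocytes, while the 4 bars of Hist1h2bc lie between 212 and 257 FPKM.

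The lists of higher members at the 2 ages were compared, since they share no group. Of the members, 12 were higher at both ages, which is 85.7% of the day 14 list and 54.5% of the day 21 list. Over all symbols, 863 were higher at both ages, 86.3% and 31.3% of the corresponding lists, so the share of the day 14 list was near that of all symbols. They were Hist1h2ac, Hist1h2ag, Hist2h2ab, Hist1h2ba, Hist1h2bp, Hist3h2ba, Hist2h3c1, Hist1h4c, Hist1h4h, Hist1h4i, Hist2h4 and Hist4h4. Past the mark at day 14 alone were 2 genes, Hist1h3g and Hist1h4a, and at day 21 alone 10 genes, Hist1h1c, Hist1h2af, Hist1h2ai, Hist2h2bb, Hist2h2be, Hist1h3a, Hist1h4b, Hist1h4d, Hist1h4f and Hist1h4m. By cluster, 9 of the 54 Hist1 genes (16.7%) were higher at day 14 and 15 (27.8%) at day 21. Of the 10 Hist2 genes, 3 (30%) and 5 (50%) were higher. Of all symbols, 4.3% were higher at day 14 and 11.9% at day 21. In the Hist3 cluster 1 of 3 genes was higher at either age, and Hist4h4 was higher at both. With so few genes, the Hist3 and Hist4 counts cannot be judged against those shares.

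In WT oocytes, members differed with age about as often as all symbols did. From day 14 to day 21, 1 member was 2-fold higher (Hist1h4c, 1.47%) and 1 lower (Hist2h2bb, 1.47%) in WT oocytes. Of all symbols, 1.17% were higher and 1.72% lower. In Mtr4-null oocytes 7 members (10.3%) were higher at day 21 than at day 14, where 5.32% of all symbols were higher. They were Hist1h2ai, Hist2h2ab, Hist1h4b, Hist1h4d, Hist1h4f, Hist1h4m and Hist4h4, of which 5 encode H4. Another 5 (7.35%) were lower, where 9.64% of all symbols were lower, namely Hist1h2ac, Hist3h2a, Hist1h2bk, Hist2h3c2 and Hist1h4a. Both Mtr4-null comparisons at day 21 share that group mean, so these counts are not independent of the genotype counts. In the Mtr4-null day 21 column, 0.120% of values above 0 had the decimal ending that a mean over 3 numbers leaves, against 55.4% to 57.4% in the other columns. Of its 2211 values from 10 to 100 FPKM with 5 decimals, 92.3% ended in 5, as a mean over 2 would, so this column may rest on fewer samples than the labels list.

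Which members appear also varied with the annotated 3′ end. In GENCODE vM21, 23 of the 45 transcripts with a stem-loop run on for over 100 bases past it (108 to 4884 bases, median 752), and 22 end within 100 bases (3 to 74 bases, median 32), close to where the histone-type cut would leave them. The former class was the better represented in poly(A) RNA: 2 of its 23 genes were listed at 0 in all groups, against 9 of 22 in the latter, and 11 reached 5 FPKM in a group against 1. The 9 at 0 share much sequence with other genes. Between 0% and 42.0% of the 50-base stretches of their transcripts occur in no other gene, against 75.2% and 75.4% for the 2. Whether the 3′ end or shared sequence lies behind these counts was not tested. In the longer class 8 genes (34.8%) were higher in Mtr4-null oocytes at day 14 and 9 (39.1%) at day 21, with median log2 differences of 0.68 and 0.13. In the shorter class 3 and 6 of the 22 genes were higher (13.6% and 27.3%), with medians of 0.085 and 0. Of the 23 genes without a stem-loop match, 3 and 7 were higher (13.0% and 30.4%), with medians of 0 and 0.34. The shares of all symbols were 4.3% and 11.9%. The limit of 100 bases was set after the values were seen, and a limit of 200 bases gave 6 and 8 higher genes of 18 in the longer class and 5 and 7 of 27 in the shorter. The medians were then 0.71 and 0.40 in the longer class and 0.17 and 0 in the shorter.

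Histone type and 3′ end overlap. The longer class held 7 H4 genes, of which 5 were higher at day 14 and 5 at day 21, and 16 genes of other types, of which 3 and 4 were higher. The shorter class held 5 H4 genes, of which 1 and 4 were higher, and 17 genes of other types, of which 2 were higher at either age. H4 genes were thus the larger share of the higher genes in both classes at day 21. Of all symbols, 4.3% were higher at day 14 and 11.9% at day 21. The 2 of 17 other genes of the shorter class (11.8%) stood at that share at day 21. Which 3′ end the measured transcripts had was not tested, since the table gives 1 value per gene.

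**Figure D4:**
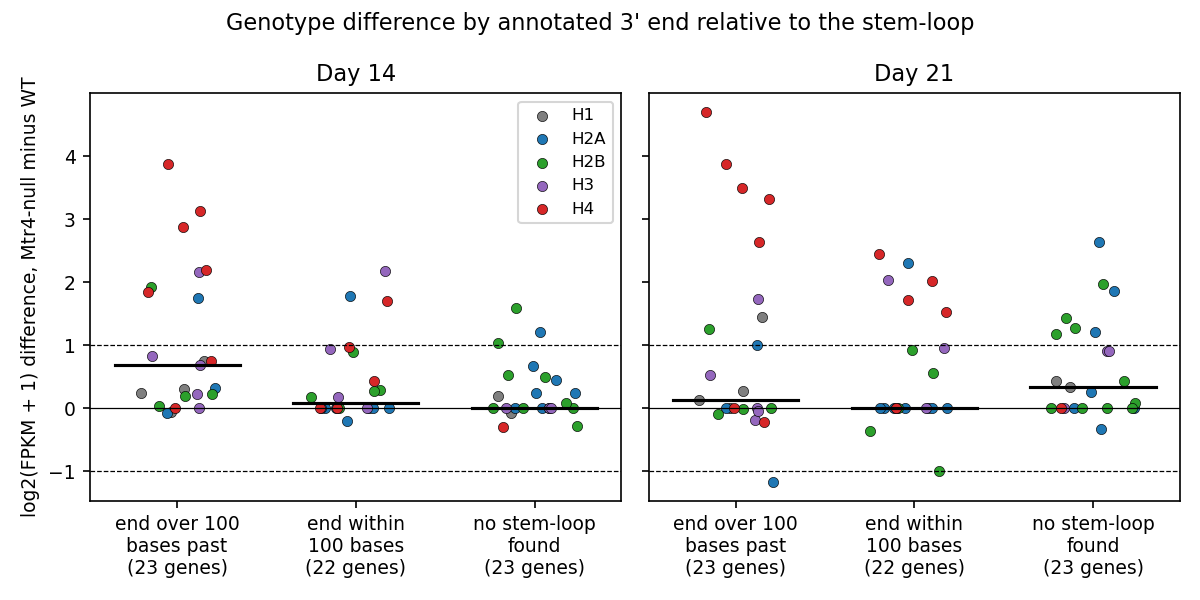
Log2(FPKM + 1) difference of Mtr4-null minus WT oocytes for the 68 histone genes at day 14 and day 21, grouped by where the annotated transcript ends relative to the stem-loop and coloured by histone type; horizontal bars mark medians and dashed lines a 2-fold difference. At day 14 the median is 0.68 for genes whose end lies over 100 bases past the loop and 0.085 for those ending within 100 bases. It is 0 for those without a loop match in the annotated transcript. At day 21 the medians are 0.13, 0 and 0.34, so the order of the classes is not the same at both ages.

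Cleavage and polyadenylation of most mRNAs is guided by the hexamer AATAAA or its variant ATTAAA shortly before the 3′ end. The last such hexamer of the annotated transcript is shown for every member of the longer class that has one after the loop and was higher in Mtr4-null oocytes at either age, with the hexamer in capitals, up to 10 bases on either side, and the sense strand of the same transcripts.
Hist4h4: gaggagatgaAATAAAtac
Hist2h4: gtatacataaAATAAAatcttaaaaa
Hist1h4i: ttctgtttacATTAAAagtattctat
Hist2h3c1: ttttaatcccAATAAAaatttaacac
Hist3h2ba: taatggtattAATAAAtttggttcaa
Hist1h1c: gtatgcttctAATAAAaagcgtttag
Hist1h4a: aaattgagtaAATAAAccttgagtgc
Hist1h2ac: tgaaaaacagAATAAAgaaattaact
Hist1h4d: acgtactgggATTAAAatcgtggtcc

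These hexamers begin 9 (Hist4h4), 33 (Hist2h4), 21 (Hist1h4i), 23 (Hist2h3c1), 27 (Hist3h2ba), 26 (Hist1h1c) and 29 (Hist1h4a) bases before the annotated end, but 315 bases before it in Hist1h2ac and 326 in Hist1h4d. The annotated end itself lies 2445, 1257, 330, 1167, 169, 840, 108, 2010 and 770 bases past the stem-loop in the order shown. In the longer class, 16 of 23 genes held AATAAA or ATTAAA after the loop and 12 held it in the last 40 bases, against 1 of 22 in the shorter class (Hist1h4h). For comparison, 70.0% of all protein-coding genes held AATAAA or ATTAAA on the sense strand in the last 40 bases of the transcript. Of the 16 genes with a hexamer, 7 (43.8%) were higher in Mtr4-null oocytes at day 14 and 8 (50%) at day 21. Of the 7 without it, 1 (14.3%) was higher at either age. That gene was Hist1h4c, whose annotated transcript runs on for 454 bases without either hexamer. The shares of all symbols were 4.3% at day 14 and 11.9% at day 21. With 7 genes, the count without a hexamer cannot be told apart from them. A match is a description of the annotated sequence and does not show where the transcripts of these oocytes end.

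The histone genes are near-copies of each other, which limits what a value of a member means. The share of the coding sequence made of 50-base stretches found in no other annotated gene had a median of 0% among the 17 members listed at 0 in all groups (0% to 31.5%) and of 27.7% among the other 51 (0% to 100%). Over the whole transcript the medians were 14.2% and 56.2%, and with 100-base stretches 19.3% and 70.2%. A listing at 0 for such members therefore cannot be told apart from reads lost or assigned to another copy. The coding sequence was unique to 100% in Hist4h4, 93.8% in Hist2h4, 62.0% in Hist3h2ba, 57.3% in Hist1h4d, 41.9% in Hist1h4c, 28.8% in Hist1h4i and 27.7% in Hist1h4h, so most of the leading H4 genes can be distinguished over part of their length. It was 2.43% in Hist1h2bc and 0% in Hist1h4m, Hist1h2ag, Hist2h2bb, Hist3h2a and Hist2h3c1. In Hist2h2bb and Hist2h3c1 the whole transcript was also unique to 0%, so their values cannot be told apart from reads of other genes. Hist2h3c1 overlaps another annotated gene, Gm20634, on its strand.

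**Figure D5:**
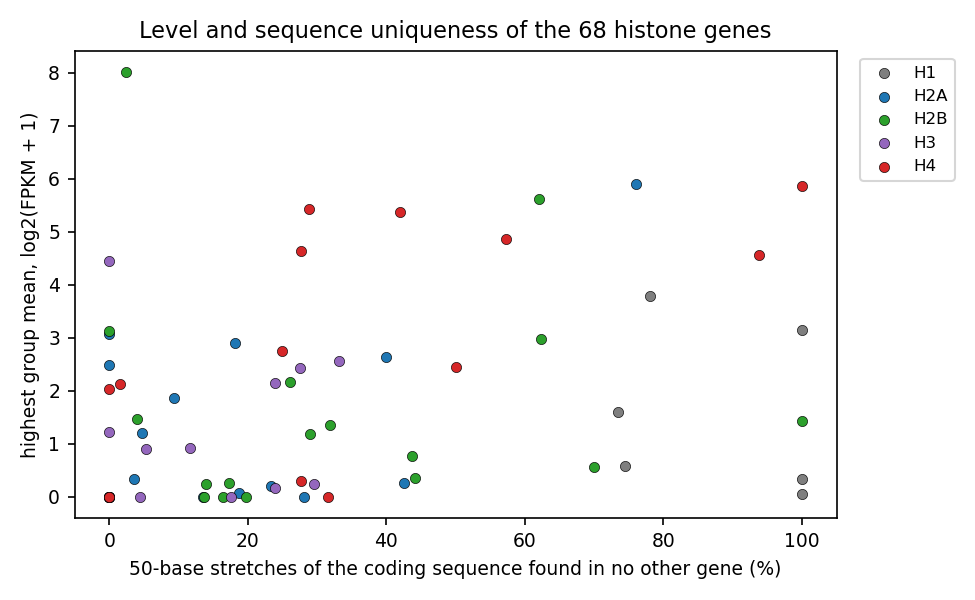
Highest of the 4 group means of each histone gene, as log2(FPKM + 1), against the percentage of 50-base stretches of its coding sequence that occur in no other annotated gene. Members at 0 FPKM lie at or below 31.5%, while Hist4h4 at 100% and Hist2h4 at 93.8% are the H4 genes furthest to the right; Hist1h2bc, at the top left, is at 2.43%.

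Some values stand in whole-number ratios. In Mtr4-null oocytes at day 21, Hist1h4b, Hist1h4f and Hist1h4d stood, to within 0.017%, at 3, 4 and 25 times the 1.12 FPKM of Hist1h4a, although their GENCODE transcripts differ in length (539 bases for Hist1h4a, 397 for Hist1h4b, 391 for Hist1h4f and 1138 for Hist1h4d) while their coding sequences are all 309 bases. Likewise Hist1h2ai stood at 2 times Hist1h2af, and Hist1h2bh and Hist1h2bm were listed at the same 0.697 FPKM with transcripts of 1679 and 524 bases. Such ratios are what whole numbers of fragments give on gene models of equal length. The gene models behind the FPKM are not given in the sources used here and may end short of the extended 3′ ends above. These families were chosen after their values were seen. A fold for a member near 1 FPKM at day 21 may therefore rest on a few fragments. Hist1h4d, at 27.9 FPKM, is among these multiples, so the limit is not confined to members near 1 FPKM. Other leading H4 genes, such as Hist1h4c with 40.2 FPKM in that group, were not examined for such ratios, so the limit may reach them too. The number of fragments behind the values of the leading H4 genes is not known.

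In GENCODE vM21, 24 of the 68 members overlap another annotated gene, 21 of them a gene on the opposite strand, and Smart-seq2 does not keep the strand. All 18 H2A genes are among the 24, mostly with Gm gene models as partners. Reads from the shared stretches cannot be told apart.

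Genes that act on histone mRNA were compared from lists. Of the 25 measured genes of histone 3′ end formation and of cleavage and polyadenylation, 1 was 2-fold higher in Mtr4-null oocytes at day 14 and 0 were lower, and at day 21, 5 were higher and 4 lower. Slbp, which encodes the stem-loop binding protein, was the most abundant of them, with 1454 FPKM in WT against 1229 FPKM in Mtr4-null oocytes on day 14 and with 1156 and 581 FPKM at day 21. Its log2 difference at day 21 was -0.99, just within the mark, while Lsm10, which encodes a subunit of the U7 snRNP, was past it with 227 and 102 FPKM. Cstf3, a subunit of the cleavage stimulation factor of ordinary polyadenylation, stood at 17.8 and 62.3 FPKM at day 14 and at 21.9 and 84.1 FPKM at day 21. Clp1, a subunit of cleavage factor II, stood at 12.3 and 23.7 FPKM at day 14 and at 5.11 and 106 FPKM at day 21. Fip1l1, a subunit of the polyadenylation specificity factor, was lower at day 21, with 151 and 52.5 FPKM. At day 14 the list's share of higher genes, 4%, was near the 4.3% of all symbols, of which 0.813% were lower. The list's shares at day 21, 20.0% higher and 4 of 25 (16%) lower, stand beside 11.9% and 13.7% of all symbols.

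Of 13 genes of histone mRNA and nuclear RNA decay, 1 was higher at day 14 (Srrt, a partner of the cap-binding complex, with 4.98 and 16.8 FPKM) and 3 were higher and 2 lower at day 21. These shares were 7.69% at day 14, and 23.1% higher and 15.4% lower at day 21, where 4.3%, 11.9% and 13.7% of all symbols were. Lsm1, a subunit of the ring that binds histone mRNA for decay, stood at 44.8 and 153 FPKM at day 21, and Exosc10, a catalytic subunit of the nuclear exosome, at 21.9 and 9.99 FPKM. Of 16 S phase genes, 0 differed at day 14, and at day 21, 2 were higher (Ccne1 and Ccne2, the E-type cyclins) and 5 lower (Mki67, Mcm2, Mcm5, E2f1 and Tyms). Mki67, a marker of cycling cells, stood at 7.59 and 3.86 FPKM at day 14 and at 8.53 and 1.05 FPKM at day 21. At day 14, 4.3% of all symbols were higher and 0.813% lower, beside 0 of the 16. At day 21 the S phase shares were 12.5% higher and 31.2% lower, where 11.9% and 13.7% of all symbols were.

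Of the 13 measured histone variants with ordinary polyadenylated mRNAs, 1 was higher at day 14 and 3 at day 21, and 0 were lower at either age. H2afj stood at 6.09 and 24.9 FPKM at day 14 and at 8.19 and 30.2 FPKM at day 21. H2afz, the gene of the variant H2A.Z, stood at 233 and 369 FPKM at day 14 and at 89.6 and 765 FPKM at day 21, and H2afy, a macroH2A gene, at 6.12 and 22.9 FPKM at day 21. H3f3b, an H3.3 gene, stayed between 578 and 762 FPKM over the 4 groups. The shares of higher variants were 7.69% at day 14 and 23.1% at day 21, where 4.3% and 11.9% of all symbols were higher. Of all symbols, 0.813% and 13.7% were lower.

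The labels were checked on the targeted gene and on markers. Skiv2l2 stood at 27.6 FPKM in WT against 1.57 FPKM in Mtr4-null oocytes on day 14, and at 26.3 and 3.86 FPKM at day 21. The 10 oocyte markers were abundant in every group, from 85.6 to 4628 FPKM, although Gdf9 and Nobox were 2-fold lower in Mtr4-null oocytes at day 21. The 10 granulosa markers summed to 19.1 FPKM in WT against 15.2 FPKM in Mtr4-null oocytes on day 14 and to 31.9 and 18.4 FPKM at day 21, with the defining markers Amh and Foxl2 at or below 0.32 FPKM. Inha, which encodes a subunit of inhibin, was higher in Mtr4-null oocytes at day 21 (1.72 and 10.9 FPKM), and Cyp19a1, the aromatase gene, was lower (25.3 and 1.48 FPKM). The 9 markers of theca, stroma, endothelium and blood summed to between 3.07 FPKM in Mtr4-null and 21.6 FPKM in WT oocytes, both at day 21, mostly from Pecam1, with Hba-a1 at 0 in all groups. The part of other cells in the histone values was not tested.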

How the data were processed

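The deposited FPKM are group means made by the authors, 1 column for each of the 4 groups. The build mm9 and the tools Cufflinks 2.2.1 and TopHat2 2.1.1 are named, per the submitters' processing notes; their roles, order, gene models and the handling of reads that match several genes are not given in the sources used here. Libraries were primed with oligo-dT and made by Smart-seq2, per the labels' protocols. Spike-in rows were not used here.

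Values were used as deposited, without a filter, and compared on the log2(FPKM + 1) scale. With 1 mean per group there is no test, error or depth. Named are members that reach 5 FPKM in a group or are 2-fold apart at an age, those nearest the mark, the targeted gene, and of each list the 2 most abundant genes or up to 4 that are 2-fold apart. The members and lists were chosen with earlier results of these data known.

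Transcripts came from GENCODE vM21 on GRCm38, not the authors' build, so no coordinates are given. All 68 symbols were matched by name. Stem-loops were searched on the sense strand. A stretch counted as unique where its 50 bases occur in no transcript of another gene. Scripts (Python 3.11.15, pandas 2.3.3, numpy 2.4.6) were tested on simulated data. Alternatives were a pseudocount of 0.1, 2 filters at 1 FPKM, median-of-ratios scaling and quantile normalization.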

Additional observations from a re-analysis of the deposited data

How the results depend on the processing

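No paired analysis was possible because the deposited table holds only group means, and for the same reason no sample could be left out. With a pseudocount of 0.1, 29 members were higher and 2 lower in Mtr4-null oocytes at day 14 and 5 lower at day 21. With age, 8 were then higher and 4 lower in WT, and 13 higher and 11 lower in Mtr4-null oocytes. The shares of all symbols at this pseudocount are not given here, so whether these counts exceed them is not known. The median differences at this pseudocount were 0.52 at day 14 and 0.18 at day 21. With a mean of at least 1 FPKM over the 4 groups, the medians were 0.97 and 1.45, and 3 members were lower with age in Mtr4-null oocytes; this filter uses the Mtr4-null values, so members can pass through the group where they are high, and its medians support nothing. With that mean over the WT groups, 8 and 11 members were higher in Mtr4-null oocytes, with medians of 0.83 and 1.27, and 2 were higher and 2 lower with age in Mtr4-null oocytes; both filters leave fewer genes. Median-of-ratios scaling gave medians of 0.19 and 0.20, and 11 higher and 3 lower with age in Mtr4-null oocytes. Quantile normalization gave medians of 0.086 and 0, 2 lower at day 21, and 3 lower with age in Mtr4-null oocytes. Other counts stayed within 1.5 times the reported ones. Without the member of highest mean FPKM over the 4 groups (Hist1h1c, Hist1h2aa, Hist1h2bc, Hist2h3c1 and Hist1h4i), the ratios of summed FPKM at day 14 and day 21 were 1.22 and 1.48 for H1, 2.59 and 2.92 for H2A, 3.25 and 2.79 for H2B, 4.25 and 3.71 for H3, and 6.41 and 9.50 for H4; without Hist4h4, an alternative chosen after seeing the data, the H4 ratio at day 21 was 8.33. With median-of-ratios scaling they were 1.33 and 2.40 for H1, 1.59 and 1.60 for H2A, 0.905 and 1.32 for H2B, 4.44 and 4.24 for H3, and 7.59 and 11.7 for H4, so the H2B sum at day 14 turned from level to slightly lower. The causes of the other moves were not tested.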
